A study of Mus musculus with 4 samples.

Results

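Polycomb repressive complex 2 (PRC2) was followed through 10 genes, taken by symbol from the deposited expression tables. They comprise 6 core subunits (Ezh1, Ezh2, Eed, Suz12, Rbbp4 and Rbbp7) and 4 cofactors (Jarid2, Mtf2, Phf1 and Phf19). All 10 were found among 21690 features, and all 10 had a usable test in every table and a mean level of at least 1 FPKM (sequenced fragments per unit of exon length, scaled to library size). The RNA came from day 5 neural precursors made from A2lox mouse embryonic stem cells, which had been kept on feeder fibroblasts and then grown as a monolayer in the serum-free medium N2B27. All cultures carried a doxycycline-inducible knockdown of Geminin, a small nucleoprotein that restrains replication licensing. There were 3 knockdown libraries from independent experiments, given 500 ng doxycycline from day 3 to day 5, and 1 control library grown without doxycycline. No doxycycline-treated culture without the knockdown construct was analysed here, so the drug and the loss of Geminin cannot be told apart. The control has no replicate, and whether the knockdown cells were 1 clone is not given in the sources used here.

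PRC2 places methyl groups on lysine residue K27 of histone H3, and its trimethylated form marks silenced developmental genes. Ezh1 and Ezh2 are alternative catalytic subunits, Suz12 is the scaffold, Eed reads the mark and stimulates the enzyme, and Rbbp4 and Rbbp7 bind histones. The core associates with one of a pair of cofactor sets: the Polycomb-like proteins Mtf2, Phf1 and Phf19, or Jarid2 together with Aebp2. In embryonic stem cells and neural precursors the complex is known for holding lineage regulators, such as the Hox genes, silent until they are needed.

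Gmnn, which encodes Geminin, had 27, 65.9 and 27.9 FPKM in knockdown libraries 1, 2 and 3, against 113 in the control. The knockdown libraries thus kept 35.7% ± 19.7 (SD, n = 3) of the control level, with the highest level in library 2. The authors' deposited tables marked this fall in libraries 1 and 3, and limma, a linear model fitted over all features, did not call it (log2 change -1.59, SE 0.56, adjusted p = 0.999). In the text a gene rose or fell where the deposited tables marked it in at least 2 of 3 tables and in 1 direction only, which is the rule the study states. Sequencing depth relative to the control was 1.00, 1.15 and 0.971. All 10 neural precursor markers were above 0 in every library, and Nes and Sox1 had 100 and 64.0 FPKM in the control. Of these 10, Vim rose, and their summed FPKM was 945, 1760 and 1560 in libraries 1, 2 and 3 (control 961). Most of the gain in that sum was Vim, with 376, 1000 and 958 FPKM against 388. Of the 10 precursor markers, 5, 9 and 7 were above the control in libraries 1, 2 and 3. Sox1 was below it in each, at 63.8, 42.5 and 48.8 FPKM. Libraries 2 and 3 stood apart from library 1 and the control in markers of other cells. Library 1 alone shares its replicate number with the control, and whether they came from the same experiment is not given. Differences between experiments and effects of the knockdown cannot be told apart in this split. Over all features with usable tests, 1.98% rose and 0.905% fell. The summed FPKM of 10 pluripotency markers, of which 7 rose, was 62.2 in the control and 84.5, 336 and 550 in libraries 1, 2 and 3. That of 12 neuronal markers, of which 4 rose, was 193, 631 and 313 against 185. All 8 epithelial markers fell, with a sum of 522, 59.9 and 169 against 469. Of 10 fibroblast markers 2 rose, with a sum of 117, 109 and 166 against 111, and Lum was listed at 0 in the control. Most of this sum was Fn1, with 89.1, 63.6 and 95.4 FPKM against 85.3. Of the 10 fibroblast markers, 7, 9 and 9 were above the control in libraries 1, 2 and 3. The median log2 ratio of the 7 that limma tested was 0.06, 0.72 and 1.19. Of the calls in these 5 marker lists, 0 remained without library 2 or without library 3, by construction, since they were marked in those libraries only. In such bulk samples, fewer cells of a type and less RNA per cell cannot be told apart.

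No PRC2 gene was called. The study's rule called 0 of the 10 members. In the single tables, 0 members were marked, against 2.43%, 5.24% and 4.62% of usable features in the tables of libraries 1, 2 and 3, and 8.65% of features marked in at least 1 table. Over all features with usable tests, the study's rule called 2.88%, which over 10 genes is less than 1 gene, so 0 is near the background. Limma, fitted to log2(FPKM + 1) over 11968 features, also called 0 of 10 at an adjusted p under 0.05, against 0.125% of features, and 0 of 10 at an unadjusted p under 0.05, against 1.27%.

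The 10 genes fell into a high and a low tier that kept their places in all 4 libraries. The order by mean FPKM was Rbbp7 at 205, Ezh2 at 127, Rbbp4 at 103, Eed at 47.7, Mtf2 at 46.1, Suz12 at 42.0, Jarid2 at 37.9, Ezh1 at 4.59, Phf1 at 2.81 and Phf19 at 1.96. Jarid2 at the foot of the upper tier was 8.27 times as abundant per length as Ezh1 at the head of the lower tier. In the middle group the ranges of Eed, Mtf2, Suz12 and Jarid2 over the 4 libraries overlapped between neighbours. Eed was above Mtf2 in 2 of 4 libraries, so this pair could not be ordered, whereas Mtf2 was above Suz12 and Suz12 above Jarid2 in 4 of 4. For all other neighbouring pairs the ranges did not overlap. Among the 11968 features tested, Rbbp7 lay above 96.2% and Phf19 above 7.23% by mean FPKM.

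**Figure D1:**
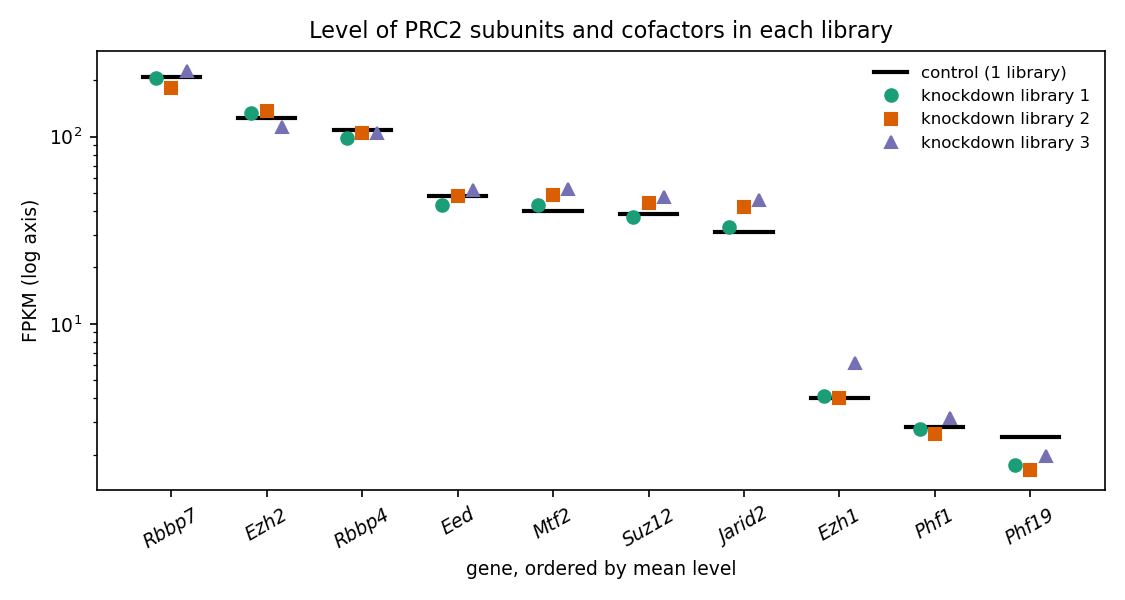
Level of each PRC2 gene in FPKM (log axis), with the control as a black line and the 3 knockdown libraries as coloured points, ordered by mean level. The 7 genes from Rbbp7 to Jarid2 sit between 31.1 and 225 FPKM in every library, and Ezh1, Phf1 and Phf19 sit between 1.65 and 6.21.

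Ezh2 and Eed are textbook targets of E2F factors, which drive S phase genes, so the promoters of all 10 members were searched for E2F words. RefSeq windows (GRCm38.p6, 250 bases before to 50 after a start site) were found for all 10, in 12 windows. The words were TTTCCCGC, TTTCGCGC, TTTGCCGC and TTTGGCGC on both strands, searched as 1 motif. Windows of 3 members held one (3 of the 12 windows), and those of Eed and 6 others held none. Over all 32851 promoter windows the share was 2.26%. The members' windows are rich in CpG, with a median of 27 against 7 over all windows, and among windows with at least 27 CpG 5.18% held a word. Of the members' windows 6 had at least 27 CpG, and the 3 with a word were among them. Whether the members differ from such windows was not tested. The matches are shown with 16 bases on each side because they lie in a catalytic subunit, the scaffold and the lowest cofactor, genes whose limma log2 changes were 0.01, 0.15 and -0.31. The strand is that of the gene and the match is in capitals.
Ezh2: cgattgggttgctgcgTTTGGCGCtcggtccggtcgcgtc
Suz12: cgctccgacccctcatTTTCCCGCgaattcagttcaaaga
Phf19: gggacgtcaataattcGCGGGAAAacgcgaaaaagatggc
The Ezh2 stretch is chr6:47595004-47595043 on the minus strand, and its match begins 3 bases after the first transcribed base. The Suz12 stretch is chr11:79992871-79992910 on the plus strand, with the match 219 bases upstream. The Phf19 stretch is chr2:34914161-34914200 on the minus strand, with the match 208 bases upstream and in the reverse orientation. A match describes these letters only, and no binding was measured.

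Ezh2, the main methyltransferase of dividing cells, lies on chromosome 6 from 47480274 to 47545029 (mm9, as all gene positions here). It had 133, 137 and 113 FPKM in knockdown libraries 1, 2 and 3, against 126 in the control. The libraries lay on both sides of the control, and their mean was 128 ± 13.2 (SD, n = 3). The limma log2 change was 0.01 with an SE of 0.16, and its 95% interval ran from 0.749-fold to 1.35-fold. By library, the authors' deposited tables put Ezh2 at 105%, 109% and 89.0% of the control.

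Ezh1, the catalytic subunit that persists in cells that have left the cycle, lies on chromosome 11 from 101052429 to 101087764. Its level was 4.10, 4.01 and 6.21 FPKM, against 4.03. Libraries 1 and 2 matched the control within 2%, and library 3 alone was higher, at 154% of it. The interval implied by the deposited test for library 3 was 90.3% to 262%, so this difference was not resolved at that level. Over the 3 libraries the limma log2 change was 0.18 with an SE of 0.30, and it was 0.01 without library 3. Within each library Ezh1 stood at a few percent of Ezh2: 3.19% in the control and 3.09%, 2.92% and 5.51% in libraries 1, 2 and 3. Ezh2 therefore supplied 94.8% or more of the summed FPKM of both in every library, with the lowest share in library 3.

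Suz12, the scaffold of the complex, lies on chromosome 11 from 79806607 to 79847624. It had 37.3, 44.3 and 47.8 FPKM, against 38.7 in the control. Library 1 was just below the control and libraries 2 and 3 were above it, at 114% and 124%. The limma log2 change was 0.15 with an SE of 0.18 and an interval of 0.796-fold to 1.54-fold, and it was 0.07 without library 3. Eed, the subunit that reads trimethylated H3, lies on chromosome 7 from 97103163 to 97129486. Its values of 42.9, 48.2 and 51.9 FPKM lay on both sides of the control at 47.9. The limma log2 change of Eed was -0.01 with an SE of 0.15. The ratio of Suz12 to Eed was 0.869, 0.920 and 0.921 in the knockdown libraries, each above the 0.809 of the control. A lone control can be the outermost of 4 libraries without any difference, and no background share was formed for ratios between genes.

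Of the histone-binding subunits, which PRC2 shares with other chromatin complexes, Rbbp4 varied least. It is listed on chromosome 4 from 128964864 to 129012614, a locus that also overlaps Sync. Rbbp4 had 98.0, 104 and 104 FPKM against 108, and its coefficient of variation over the 4 libraries was 3.89%, the lowest of the 10 members. All 3 knockdown libraries were below the control, and the interval implied by each table included 100%. Rbbp7 is listed on chromosome X from 159198303 to 159267331, a locus that overlaps Txlng, and it had 205, 183 and 225 FPKM against 209. Strand use in counting is not given in the sources used here, so reads shared with Sync or Txlng could not be told apart. The limma log2 changes were -0.08 with an SE of 0.11 for Rbbp4 and -0.04 with an SE of 0.16 for Rbbp7. Rbbp4 stood at 51.7% of Rbbp7 in the control and at 47.9%, 57.0% and 46.2% in libraries 1, 2 and 3, a range that includes the control.

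Jarid2, a Jumonji-family protein without demethylase activity that helps bring PRC2 to chromatin, had the largest positive change among the 10 members. It lies on chromosome 13 from 44826271 to 45016346. Its level was 32.8, 42.1 and 45.7 FPKM against 31.1 in the control. All 3 knockdown libraries were above the control, library 1 barely so at 106%, and libraries 2 and 3 at 136% and 147%. The authors' deposited tables gave p = 0.0501 for library 2 and p = 0.00604 for library 3, with q-values of 0.377 and 0.101, and marked neither. The test in library 3 was the only one of the members' tests with p under 0.05, while 13.1%, 13.3% and 13.0% of all features had such a p in the tables of libraries 1, 2 and 3. Over the 3 libraries the limma log2 change was 0.35 with an SE of 0.22 (unadjusted p = 0.181, adjusted p = 0.999), and the interval ran from 0.849-fold to 1.91-fold. Without knockdown library 1, limma gave Jarid2 a change of 0.48 with an unadjusted p = 0.0243 and an adjusted p = 0.436.

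Aebp2, the usual partner of Jarid2 in the complex and no member of the set of 10, did pass the study's rule. It had 43.5, 61.4 and 59.9 FPKM against 35.7, that is 121%, 172% and 169% of the control. The authors' deposited tables marked it in library 2 (q = 0.0426) and library 3 (q = 0.0388), both close to the threshold of 0.05. Limma did not call Aebp2 (log2 change 0.59, SE 0.24, adjusted p = 0.999). Libraries 2 and 3, where Jarid2 and Aebp2 were highest, also had the raised pluripotency and neuronal sums and the lowered epithelial sums given above. Their fibroblast medians were higher as well, and the part of all those cells in these values was not tested. The ratio of Jarid2 to the scaffold Suz12 was 0.803 in the control and higher in each knockdown library, at 0.878, 0.951 and 0.956 in libraries 1, 2 and 3. This ratio too has no background share beside it.

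**Figure D2:**
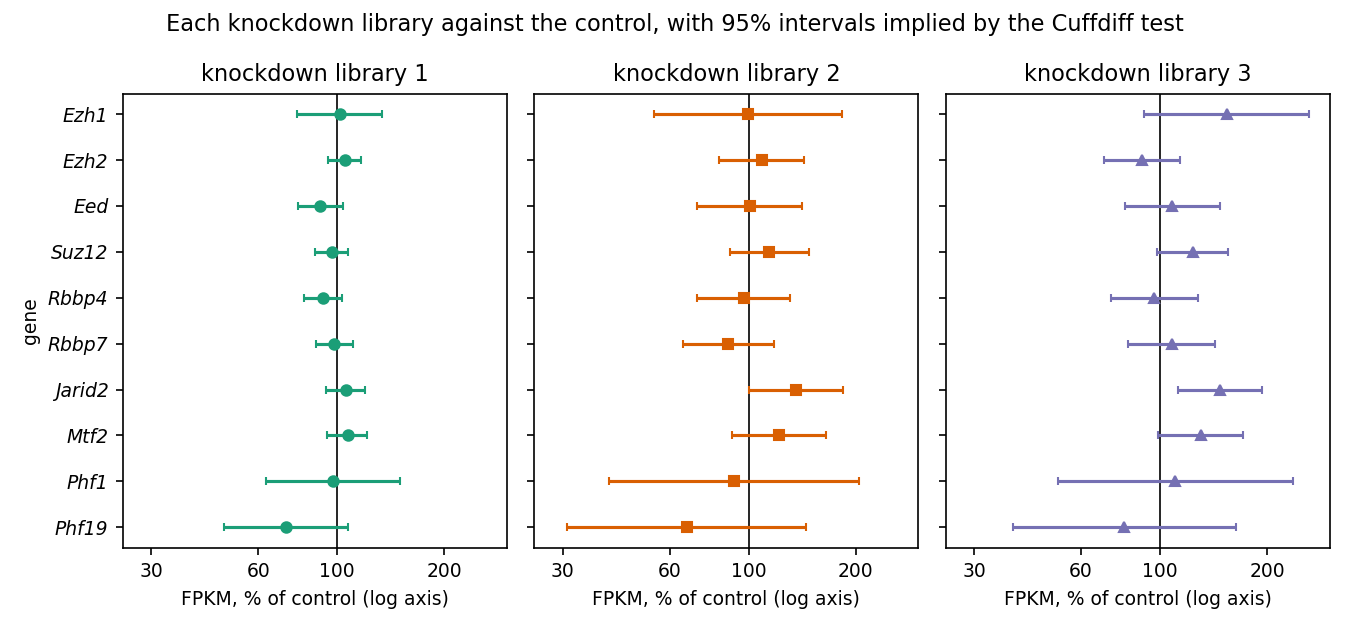
FPKM of each PRC2 gene as a percentage of the control (log axis) in each knockdown library, with 95% intervals implied by the deposited Cuffdiff statistic. Only Jarid2 in library 3, at 147%, has an interval that excludes 100%, and the intervals of libraries 2 and 3 are wider than those of library 1.

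Mtf2 had the highest FPKM of the Polycomb-like genes, a family whose proteins link PRC2 to CpG-rich DNA and to methylated H3. It lies on chromosome 5 from 108494760 to 108538021 and had 42.9, 48.9 and 52.2 FPKM against 40.2. Each knockdown library was above the control, at 107%, 122% and 130%, with library 1 nearest to the control as for Jarid2. The limma log2 change was 0.25 with an SE of 0.16 and an interval of 0.888-fold to 1.58-fold. Of the summed FPKM of Mtf2, Phf1 and Phf19, Mtf2 made up 88.4% in the control and 90.5%, 92.1% and 91.1% in libraries 1, 2 and 3.

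Phf19, a Polycomb-like protein that binds H3 methylated at K36, was the member with the lowest level and the largest negative change. It lies on chromosome 2 from 34749274 to 34769496. Its level was 1.77, 1.65 and 1.96 FPKM against 2.47, so all 3 knockdown libraries were below the control, at 71.7%, 66.9% and 79.4%. Library 1 lay between libraries 2 and 3 here, whereas for Jarid2 and Mtf2 it was the nearest to the control. The intervals implied by the authors' deposited tables were wide at this level and reached 107%, 145% and 164%. Limma gave a log2 change of -0.31 with an SE of 0.25, and the pseudocount of 1 understates changes at 2.47 FPKM. The ratio of Phf19 to Mtf2 was 0.0413, 0.0337 and 0.0375 in the knockdown libraries against 0.0614 in the control, again without a background share. Phf1, the third of the family, lies on chromosome 17 from 27070071 to 27074835 and had 2.75, 2.57 and 3.12 FPKM against 2.82. These values lay on both sides of the control, with a limma log2 change of -0.01 and an SE of 0.24.

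**Figure D3:**
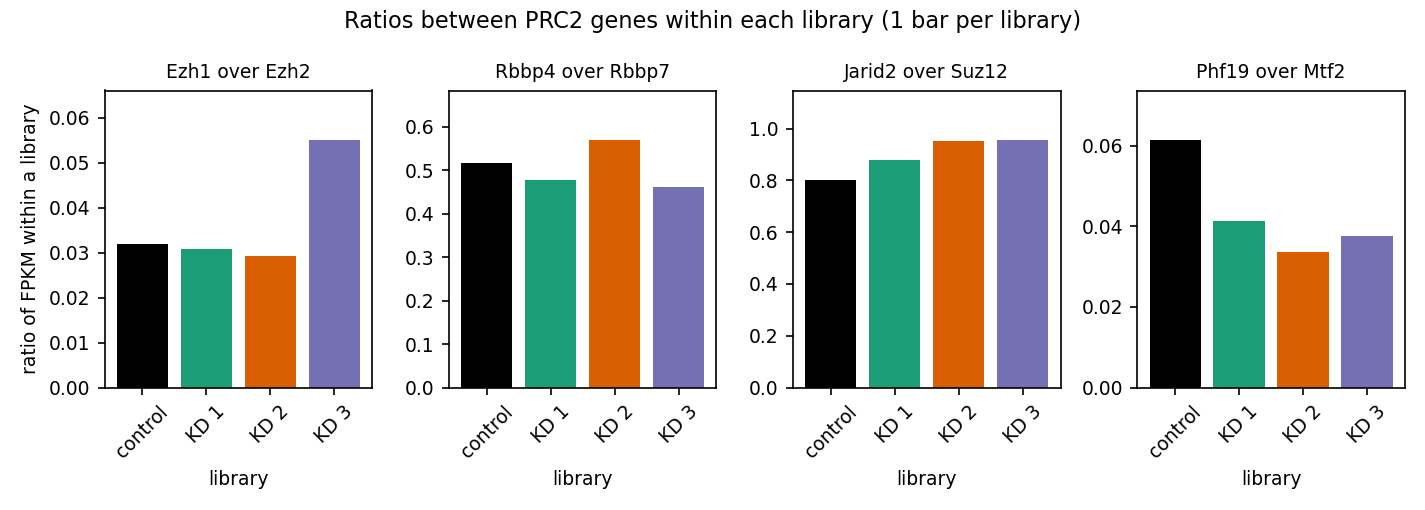
Ratio of FPKM between pairs of PRC2 genes within each library, with 1 bar for the control and 1 for each knockdown library (KD 1 to 3). Ezh1 over Ezh2 stands out in library 3 at 0.0551, and Phf19 over Mtf2 is 0.0614 in the control and at most 0.0413 in the knockdown libraries. No background share was formed for such ratios.

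Taking the set as a whole, Jarid2 and Mtf2 were above the control in all 3 knockdown libraries, and Rbbp4 and Phf19 were below it in all 3. The groups of 3 and 1 thus did not overlap for 4 of 10 genes. Among all features tested, 22.7% were above in all 3 libraries and 22.9% below, so this share is near the background, and the 3 comparisons share 1 control. The median log2 ratio of the 6 core subunits was -0.04, 0.00 and 0.11 in libraries 1, 2 and 3, and that of the 4 cofactors was 0.02, 0.09 and 0.24. Over all 11968 features these medians were -0.02, 0.03 and 0.01. The median distance from the control, whatever its sign, was 0.072, 0.154 and 0.197 log2 units for the 10 members, against 0.125, 0.203 and 0.194 for all features tested. Between 25 and 300 FPKM it was 0.075, 0.188 and 0.166 for 7 members, against 0.105, 0.159 and 0.150 for 3885 features. These 7 were thus slightly nearer to the control than such features in library 1 and slightly farther in libraries 2 and 3. The 10 members together were not farther in library 2.

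**Figure D4:**
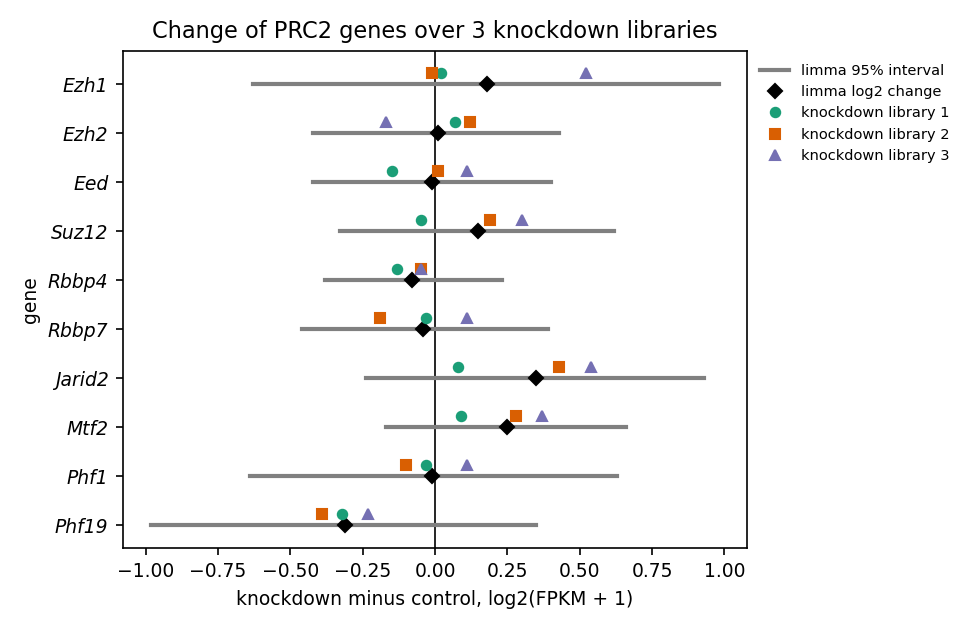
Difference between knockdown and control in log2(FPKM + 1) for each PRC2 gene, with the limma estimate (diamond), its 95% interval (grey) and the 3 libraries (coloured). Every interval includes 0, and on this scale they reach from 0.507-fold for Phf19 to 1.97-fold for Ezh1.

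On the log2(FPKM + 1) scale the limma intervals of the 7 genes of the upper tier lay between 0.727-fold and 1.91-fold. With a pseudocount of 0.1 they lay between 0.726-fold and 1.93-fold, so neither a doubling nor a halving was inside them at these settings. The highest bounds were those of Jarid2 and close to a doubling. With no minimum FPKM its SE was 0.23 on 1.23 prior degrees of freedom, against 0.22 on 2.53 here. A doubling of Jarid2 was therefore not excluded under every alternative. For Ezh1, Phf1 and Phf19 the pseudocount of 1 narrows the interval. With 0.1 the intervals of these 3 genes reached from 0.361-fold for Phf19 to 2.23-fold for Ezh1, so a doubling of Ezh1 and a halving of Phf19 were inside them. All of these intervals rest on 2 residual degrees of freedom and on a prior variance borrowed from the other features, which brings the total to 4.53 in the main fit. They also assume that the lone control varies as the knockdown libraries do. With 3 libraries set against 1, the smallest one-sided p of an exact permutation test is 0.25, and none was run.

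Other genes of the Polycomb system were read from lists grouped by function, which were chosen with earlier results of these data known. Of 4 other PRC2-associated genes, Aebp2 rose and Lcor, Lcorl and Epop (listed as E130012A19Rik) were not called. Of 22 genes of PRC1, the complex that binds the PRC2 mark and ubiquitinates histone H2A, 2 rose and 0 fell, against 1.98% and 0.905% of all features with usable tests. These were Bmi1, a partner of the ubiquitin ligase subunit, with 28.5, 50.0 and 43.2 FPKM against 23.7, and Cbx7, a reader of the mark, with 18.0, 31.1 and 34.5 against 16.1. Both were marked in libraries 2 and 3 only, as was Aebp2. The median log2 ratio of the PRC1 list was 0.06, 0.21 and 0.21 in libraries 1, 2 and 3. Whether PRC1 and PRC2 genes differ in their response was not tested.

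Enzymes that oppose or share parts with PRC2 were not called. None of 3 demethylases of the mark was called, of which 2 had usable tests, and Kdm6a had 21.3, 23.0 and 20.2 FPKM against 20.7. Kdm6b, the inducible demethylase, had 16.3, 16.4 and 20.0 against 17.6. Of 11 genes of Trithorax methyltransferases and their complexes, most of which place the opposing K4 mark, 0 were called. Their most abundant members were the shared subunits Dpy30, with 173, 122 and 122 FPKM against 158, and Ash2l, with 69.3, 82.4 and 89.1 against 71.3. Of 23 genes from other complexes that contain Rbbp4 or Rbbp7, 0 were called, and the list's median log2 ratio was 0.02, 0.11 and -0.11. Among them the deacetylase Hdac2 had 190, 198 and 169 FPKM against 183, and the remodeller Chd4 had 223, 206 and 196 against 226.

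Of 39 developmental genes known as Polycomb targets in stem cells, 26 had usable tests, 5 rose and 0 fell, against 1.98% and 0.905% of all features with usable tests. The 5 that rose had 0.121 FPKM (Lhx5) to 1.62 FPKM (Hoxb4) in the control, so a fall had little room. At such levels a usable test can itself depend on a high value in libraries 2 and 3. The count of 5 and its direction were therefore not read as a result about the targets. The median log2 ratio of the 17 that limma tested was -0.05, 0.07 and 0.62 in libraries 1, 2 and 3, and some of the 17, such as Hoxc4, reached the level filter only through libraries 2 and 3. The proneural gene Neurog1 had 0.104, 14.3 and 5.61 FPKM against 0.524. Among the axial patterning genes, Hoxb4 stood at 1.75, 33.1 and 19.6 FPKM (control 1.62). Hoxc4 stood at 155%, 2170% and 1340% of its control level of 0.775 FPKM. Hoxd3, whose locus overlaps Hoxd4, had 0.171, 12.5 and 4.90 FPKM against 0.447, and the LIM homeobox gene Lhx5 was the fifth. The calls of these 5 targets and of Aebp2, Bmi1 and Cbx7 were lost without library 2 or without library 3, by construction, since each was marked in those libraries only. Of 17 proliferation genes 0 were called, and Top2a had 242, 277 and 272 FPKM against 233, while Pcna had 383, 407 and 385 against 461.

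The features with log2 ratios nearest to those of Ezh2 over the 3 libraries, among features of at least 10 FPKM, were Ddx27, Ubl7 and Atp11a, at distances of 0.0360, 0.0409 and 0.0423 log2 units. A further 93 of 7473 features lay within 0.1. For Ezh1 the nearest were H2-K1, Atp13a3 and Dgkh, at 0.0504, 0.0863 and 0.0982 log2 units. Ezh1 itself, at 4.59 FPKM, is below the level of the features it was compared with. H2-K1, a class I histocompatibility gene, had ratios of 0.01, -0.05 and 0.51 in libraries 1, 2 and 3.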

How the data were processed

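RNA-seq values came from 3 deposited tables, each setting 1 knockdown library against the shared control, so ratios were formed within a table. The submitters' processing notes name TopHat, Cufflinks and Cuffdiff and the mm9 build, while versions, annotation and strand use are not stated there. The authors' deposited values are FPKM. Beside these, the deposited columns give a Cuffdiff p-value per library pair, a q-value that exceeds 1 in places and is treated as a score, a test statistic (a score) and a natural log ratio of control over knockdown. Each such test compares 2 libraries, not the conditions. The natural log ratio divided by the statistic was taken as the implied standard error in 95% intervals. The tables used here give FPKM and not counts, so only relative depth could be had. It came from features too low for a test: 80.5% to 83.7% of their ratios were within 0.2% of a fraction whose terms are whole reads of at most 12.

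A linear model (limma 3.58.1, R 4.3.3, trended prior) on log2(FPKM + 1) used features usable in all 3 tables with a mean FPKM of at least 1. It had Benjamini-Hochberg adjustment over all of them, and was tested on simulated data. There the control varied as the knockdown libraries did, so that assumption was not checked. The ratio within each table was added to the mean control value. Control values of the members differed between tables by at most 0.0283%. Named genes are all 10 members, Gmnn, up to 4 called genes of each other pathway list or its 2 most abundant where none was called, and the 3 features nearest to Ezh1 and to Ezh2. Lhx5, Vim, Nes, Sox1, Lum, Fn1, Lcor, Lcorl and Epop fall outside this rule, chosen with their values known. The members and lists were chosen with earlier results of these data known. Alternatives covered the pseudocount, the filter, the prior, centring, the calling rule and leaving out each library.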

Additional observations from a re-analysis of the deposited data

How the results depend on the processing

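The count of PRC2 genes called stayed at 0 under every alternative run, by the study's rule and by limma. The study's rule was varied to marks in at least 1 or in all 3 tables, q under 0.01 or a change of 1 log2 unit. Each library was also left out. Under that rule only the change of 1 log2 unit could have given another count, by construction, since 0 members were marked in any table. A minimum of 5 FPKM left 7 of the 10 members, without Ezh1, Phf1 and Phf19. The count over all features moved. By the study's rule it was 417, against 1268 with marks in at least 1 table and 17 with marks in all 3. It was 254 at q under 0.01, 392 without library 1, 35 without library 2 and 34 without library 3. By limma it was 15, and it was 9 with a pseudocount of 0.1, 4 with no minimum FPKM, 8 with a minimum of 5, 7 with no trend in the prior variance, and 6 to 28 with a library left out. The log2 changes of Jarid2, Mtf2, Suz12, Ezh1, Rbbp4 and Phf19 kept their sign under every alternative run. With a library left out, 4 changes near 0 took either sign: Ezh2 ranged from -0.05 to 0.09, Eed from -0.07 to 0.06, Rbbp7 from -0.11 to 0.04 and Phf1 from -0.06 to 0.04. The ranges were 0.25 to 0.48 for Jarid2, 0.18 to 0.32 for Mtf2, 0.07 to 0.24 for Suz12, 0.01 to 0.27 for Ezh1, -0.09 to -0.05 for Rbbp4 and -0.36 to -0.28 for Phf19, and the low values of Ezh1 and Suz12 were those without library 3. No paired analysis was possible because the single control shares only 1 replicate number with the knockdown libraries. The implied standard errors were largest for members of the low tier, up to 0.413 natural log units for Phf1 in library 2, which was the deepest library. Their median over the 10 members was 0.0656, 0.155 and 0.145 in libraries 1, 2 and 3. Over all features of 10 to 300 FPKM it was 0.0799, 0.182 and 0.17. The wider intervals of libraries 2 and 3 were thus not particular to the PRC2 genes.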
